A study of Bos taurus with 14 samples.

Results

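Most of the genes described here encode initiation and elongation factors of cytosolic protein synthesis. The same names also cover EIF4EBP1, an inhibitor of eIF4E, EEF2K, a kinase of eEF2, and EEF1E1 of the multi-synthetase complex. EIF1AD, grouped by name, and 2 enzymes that methylate elongation factors are included too. All 48 genes are called factor genes below. They were taken as every probe set with a single annotated symbol beginning with EIF1 to EIF6 or EEF, and the kinases named EIF2AK were left out. The rule gave 48 of the 9155 genes named on the array, measured by 70 of 24128 probe sets. Of these 70, 6 are array controls for EEF1A1 and EIF4E, which left 64 probe sets for testing, and 15 of the 48 genes had more than 1 tested probe set. The rule used names and no measured value.

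Translation starts when eIF2, carrying GTP and the initiator tRNA, joins the small ribosomal subunit with eIF1, eIF1A, eIF3 and eIF5, and when eIF4F brings the capped end of the mRNA to that subunit. eIF2B recharges eIF2 with GTP, and 4E-BP1, encoded by EIF4EBP1, holds eIF4E away from eIF4G when mTOR signalling is low. In elongation, eEF1A delivers aminoacyl-tRNA and eEF2 moves the ribosome along the mRNA, and in the mammary gland this machinery serves the synthesis of milk proteins.

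The samples were mammary biopsies from pregnant Holstein cows that were no longer milked. Cows went dry roughly 60 d ahead of the date calving was predicted. They were then allotted at random to long days, with 16 h lit and 8 h dark (LD), or to short days, with 8 h lit and 16 h dark (SD). Biopsies were taken at day -24 and day -9 relative to calving. The groups were LD day -24 (3 arrays), SD day -24 (3 arrays), LD day -9 (4 arrays) and SD day -9 (4 arrays), and all 4 groups share breed, tissue and dry status, with no lactating or undried control. RNA was required to have an integrity number above 7.0, and each sample was hybridised to 1 Affymetrix bovine array. It is not stated whether a cow was biopsied on both days or whether arrays of a group came from separate cows, so the p-values below measure only the spread between these samples.

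Values are log2 signals, so a difference of 1 is 2-fold. The level of a probe set served to choose the brightest of a gene and to mark low signal. Levels of single genes are not compared with each other. Median log2 signal ranged over the 14 arrays from 6.43 to 6.60, and pairwise correlations ranged from 0.951 to 0.992. The 6 measured milk protein genes had a mean log2 signal of 12.46 to 13.12 in every array, and the 10 luminal epithelial markers 9.81 to 10.65, so the defining markers of the labelled tissue were present. Earlier results of these data had set 4 arrays apart, namely LD day -24 replicate 1 and SD day -9 replicate 1 on principal components, and LD day -9 replicate 4 and SD day -24 replicate 3 for low signal in a shared group of probe sets. Values without one or more of them are given beside many of the results. Where a gene's signal differs in a biopsy, fewer cells of a type and less RNA per cell cannot be told apart.

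The differences between photoperiods and days in the translation factor genes were small. Over both days, SD minus LD ran from -0.24 for EEF1AKMT3 to 0.17 for EIF2B3 among the 48 genes. Both ends moved without LD day -24 replicate 1, EEF1AKMT3 farther from 0, to -0.42, and EIF2B3 nearer to 0, to 0.049. Leaving out LD day -24 replicate 2 gave -0.13 and 0.25. Over both photoperiods, day -9 minus day -24 ran from -0.24 for EIF4E3 to 0.37 for EIF4EBP1. In limma's moderated test with Benjamini-Hochberg adjustment over 24016 probe sets, 0 of 64 factor probe sets passed an adjusted p of 0.05 in any of the 7 contrasts, and 0% of all probe sets passed. At an unadjusted p under 0.05 the SD minus LD contrast at day -24 held 1 of 64 (2.42% of all probe sets), that at day -9 held 0 (2.77%) and that over both days held 0 (1.94%). The day -9 minus day -24 contrast held 3 of 64 in LD (7.47% of all), 0 in SD (4.56%) and 2 over both photoperiods (7.72%), and the photoperiod by day interaction held 0 (4.15%). With all 14 arrays each of these shares of 64 was below the share over all probe sets, but not with every array left out. The counts are small and the contrasts share arrays. The counts moved with single arrays and with the share over all. In LD the count was 0 (3.85% of all) without LD day -24 replicate 1, and it rose to 7 (10.8%) when LD day -24 replicate 2 was left out. In SD it was 4 (7.31%) without SD day -24 replicate 1. Over both photoperiods it was 0 (6.07%) without LD day -24 replicate 1, and it rose to 6 (9.35%) when SD day -24 replicate 3 was left out. For photoperiod over both days it was 4 (4.91%) without LD day -24 replicate 1, a share of 64 above that over all.

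The intervals set bounds on these differences. With 1 probe set per gene, the one of highest mean, the 95% interval lay within 2-fold either way for all 48 genes in every contrast but the interaction, against 88.4% to 97.1% of all named genes. In the interaction it did so for 44 of 48, against 71.8% of all genes, and EEF1AKMT3, EEF1E1, EIF2B3 and EIF4A2 were the 4 outside. A narrower limit of 0.5 on the log2 scale held 46 of 48 genes for photoperiod over both days and 44 of 48 for day over both photoperiods, against 78.9% and 71.6% of all genes. The median within-group standard deviation was 0.173 among the factor genes and 0.237 over all genes. The factor genes were also brighter, with a median log2 signal of 10.22 against 7.83 over all genes. Neither this spread nor the shares above were compared at like signal.

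The medians of the factor genes lay close to those of all genes. For SD minus LD over both days, 15 of 48 genes (31.2%) were above 0, against 50.1% of all genes. The median was -0.011, against 0.00030 over all genes. At day -24 the median was 0.012 with 30 of 48 above 0, against 0.043 and 59.9% over all genes. At day -9 it was -0.036 with 13 of 48 (27.1%) above 0, against -0.039 and 39.7%. For day -9 minus day -24 the median was 0.062 in LD with 31 of 48 above 0, against 0.064 and 59.9% over all genes. In SD it was -0.013 with 22 of 48, against -0.032 and 42.3%. Over both photoperiods it was 0.021 with 29 of 48, against 0.015 and 53.8%. The interaction was SD minus LD at day -9 minus the same at day -24. Its median was -0.058 with 15 of 48 above 0, against -0.093 and 36.6% over all genes. The interaction median was 0.047 without the 2 arrays that stood apart on principal components. The signs of the other 6 medians each turned with 1 array. Without LD day -24 replicate 1 the medians were -0.037 for photoperiod at day -24 (17 of 48 above 0), -0.019 for day in LD (20 of 48) and -0.010 for day over both photoperiods (19 of 48). Without SD day -9 replicate 1 they were 0.0020 for photoperiod at day -9, 0.0069 for photoperiod over both days and 0.035 for day in SD. Contrasts that use the same arrays share those arrays' errors.

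**Figure D1:**
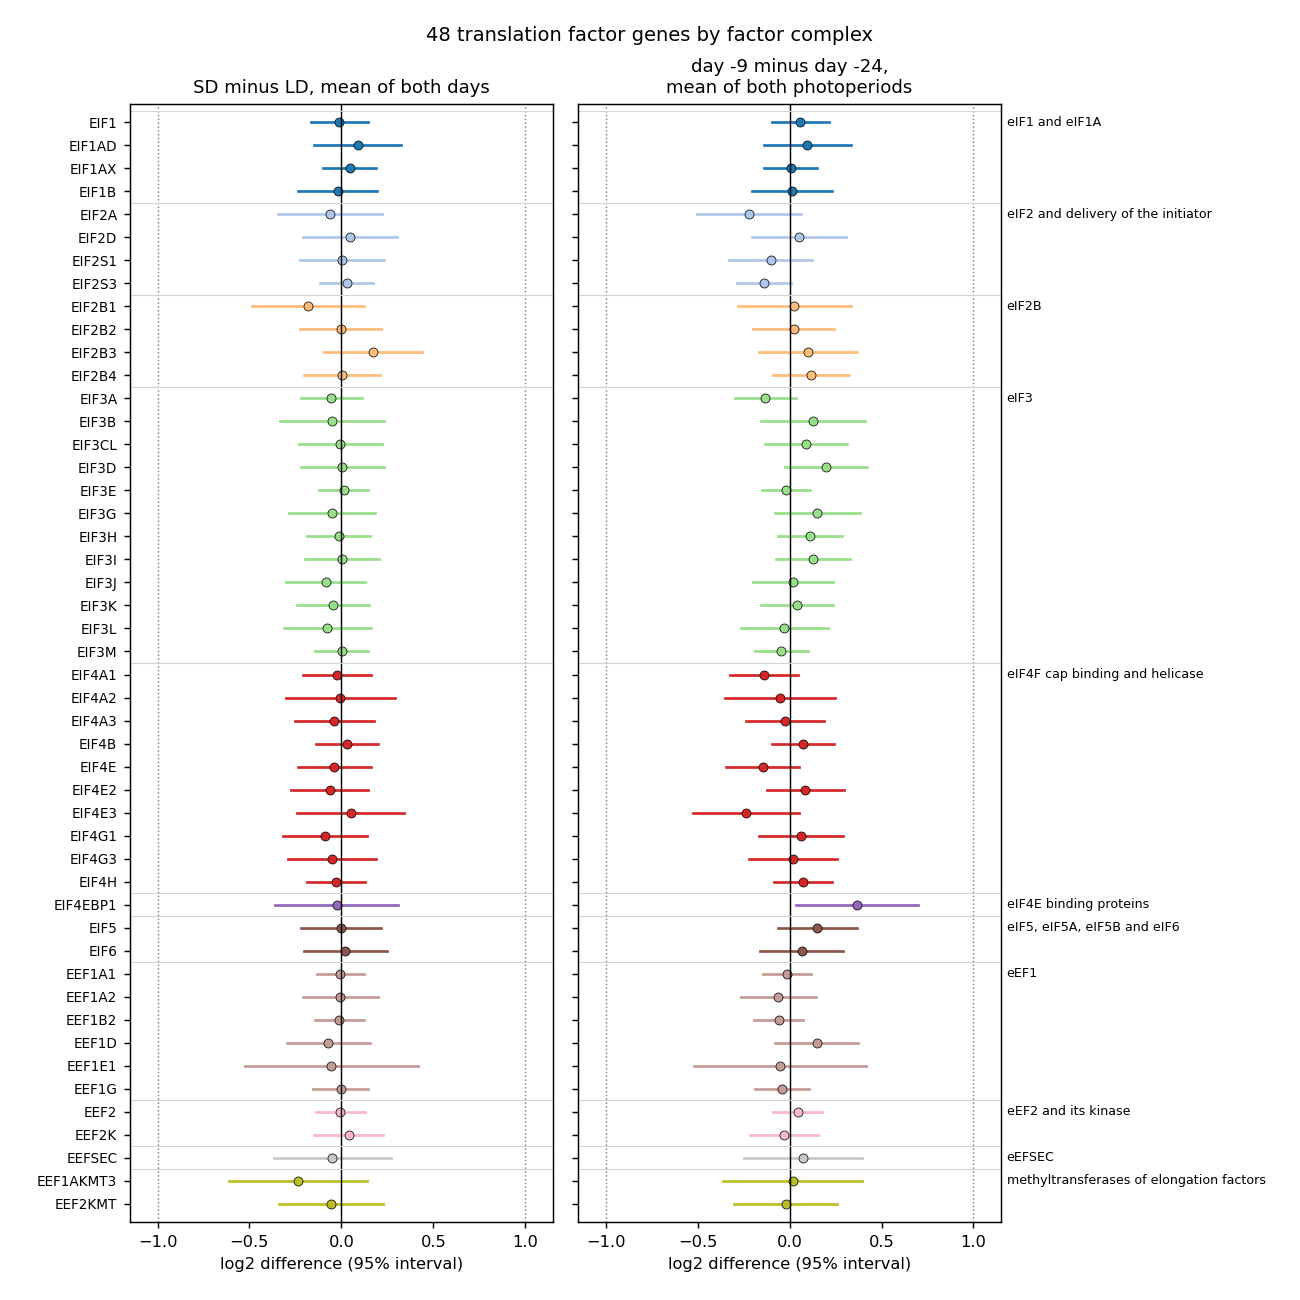
Log2 differences of 48 translation factor genes (points, 1 probe set per gene) with 95% intervals (bars), grouped and coloured by factor complex; the left panel is SD minus LD averaged over both days, the right panel day -9 minus day -24 averaged over both photoperiods, and dotted lines mark a 2-fold difference. All 48 intervals stay between the dotted lines in both panels, and EIF4EBP1 has the highest day difference at 0.37.

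For eIF4F, the complex that binds the cap and unwinds the leader of the mRNA, 10 genes were grouped by name. Not all of them encode subunits of the complex. EIF4E, the cap-binding subunit, read 10.28, 10.21 and 10.27 in LD day -24 and 10.18, 10.11 and 9.84 in SD day -24. At day -9 it read 9.89, 9.94, 10.22 and 9.70 in LD and 9.96, 10.06, 10.18 and 10.06 in SD. The LD day -24 arrays were the 3 highest of their day and did not overlap SD day -24, whereas at day -9 the photoperiods overlapped. LD and SD did not overlap at day -24 in 3 of 64 factor probe sets (5.67% of all probe sets), in EIF4E, EIF2B3 and EEF1A1. They overlapped in all 64 at day -9 (2.46% of all did not) and over both days (0.05% of all did not). EIF4E differed between days by -0.32 in LD (standard error 0.13, limma adjusted p = 0.651) and by 0.02 in SD. The interaction of 0.34 (standard error 0.18, limma adjusted p = 0.900) was not past the threshold, so the days are not shown to differ more under LD. EIF4E was lowest in the 2 arrays of low signal in a shared group of probe sets, SD day -24 replicate 3 and LD day -9 replicate 4. Without both, the LD day difference was -0.24 and the interaction 0.16.

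EIF4EBP1, the inhibitor that competes with eIF4G for eIF4E, gave the highest day difference among the 48 genes. It read 9.73, 10.09 and 9.59 in LD day -24 and 9.97, 9.21 and 10.14 in SD day -24, against 9.92, 10.38, 10.05 and 10.31 in LD day -9 and 10.07, 9.95, 10.10 and 10.47 in SD day -9. The ranges of the days overlapped under both photoperiods, although the 3 highest of 14 values were all from day -9. The difference over both photoperiods was 0.37 (standard error 0.15, 95% interval 0.033 to 0.70), with 0.36 in LD and 0.37 in SD, and limma's adjusted p of 0.639 did not pass. The value moved to 0.22 without SD day -24 replicate 2, the lowest array, and to 0.46 without SD day -24 replicate 3. The SD minus LD difference over both days was -0.026 (95% interval -0.36 to 0.31).

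No marker gene of another cell type passed limma's adjusted p of 0.05 between days. Of 6 measured adipocyte markers 5 were above 0 at day -9 minus day -24, with a median of 0.41, and their mean signal ranged from 5.54 to 6.23 in the day -24 arrays and from 5.79 to 6.74 in the day -9 arrays. The median over 7 myoepithelial markers was 0.35. Of 11 measured cell cycle genes, 7 were above 0 between days in LD, with a median of 0.14, and 0 in SD, with a median of -0.80, which was -0.47 without SD day -9 replicate 1. The EIF4EBP1 day difference was 0.34 with the adipocyte mean as a covariate and 0.39 with the luminal epithelial mean. With the difference between transcript ends of 3 other control transcripts as a covariate it was 0.30. The other marker lists, the myoepithelial one included, were not used as covariates, so cell composition was not fully adjusted for.

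Of the other eIF4F genes, EIF4G1, the scaffold that joins eIF4E to the helicase and to eIF3, read 8.80, 9.13 and 9.23 in LD day -24, 9.03, 8.55 and 8.93 in SD day -24, 8.88, 8.91, 9.01 and 9.17 in LD day -9 and 8.84, 9.02, 9.05 and 9.20 in SD day -9. All 4 groups overlapped, and the differences were -0.089 for photoperiod and 0.063 for day. EIF4A2, a helicase subunit, had the highest interaction of the 48 genes, 0.48 (standard error 0.27, limma adjusted p = 0.900). The lowest interaction, larger in size, was -0.51 for EIF2B3, and -0.27 without LD day -24 replicate 1. EIF4A2 read 11.03 in LD day -9 replicate 4 and 10.97 in SD day -24 replicate 3 against 11.50 to 11.86 in the other 12 arrays. Without those 2 arrays the EIF4A2 interaction was 0.078. The remaining genes grouped by name (EIF4A1, EIF4A3, EIF4B, EIF4E2, EIF4E3, EIF4G3 and EIF4H) lay between -0.24, for EIF4E3, and 0.086, for EIF4E2, over days. EIF4H, which assists the helicase, read 4.84, 5.17 and 4.89 in LD day -24, 5.29, 4.64 and 4.51 in SD day -24, 5.20, 5.19, 5.33 and 4.85 in LD day -9 and 5.32, 5.36, 4.88 and 5.34 in SD day -9 in its dimmest probe set of 3. The days overlapped, with a difference of 0.29 over both photoperiods (limma adjusted p = 0.652). Its brightest probe set gave 0.071.

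**Figure D2:**
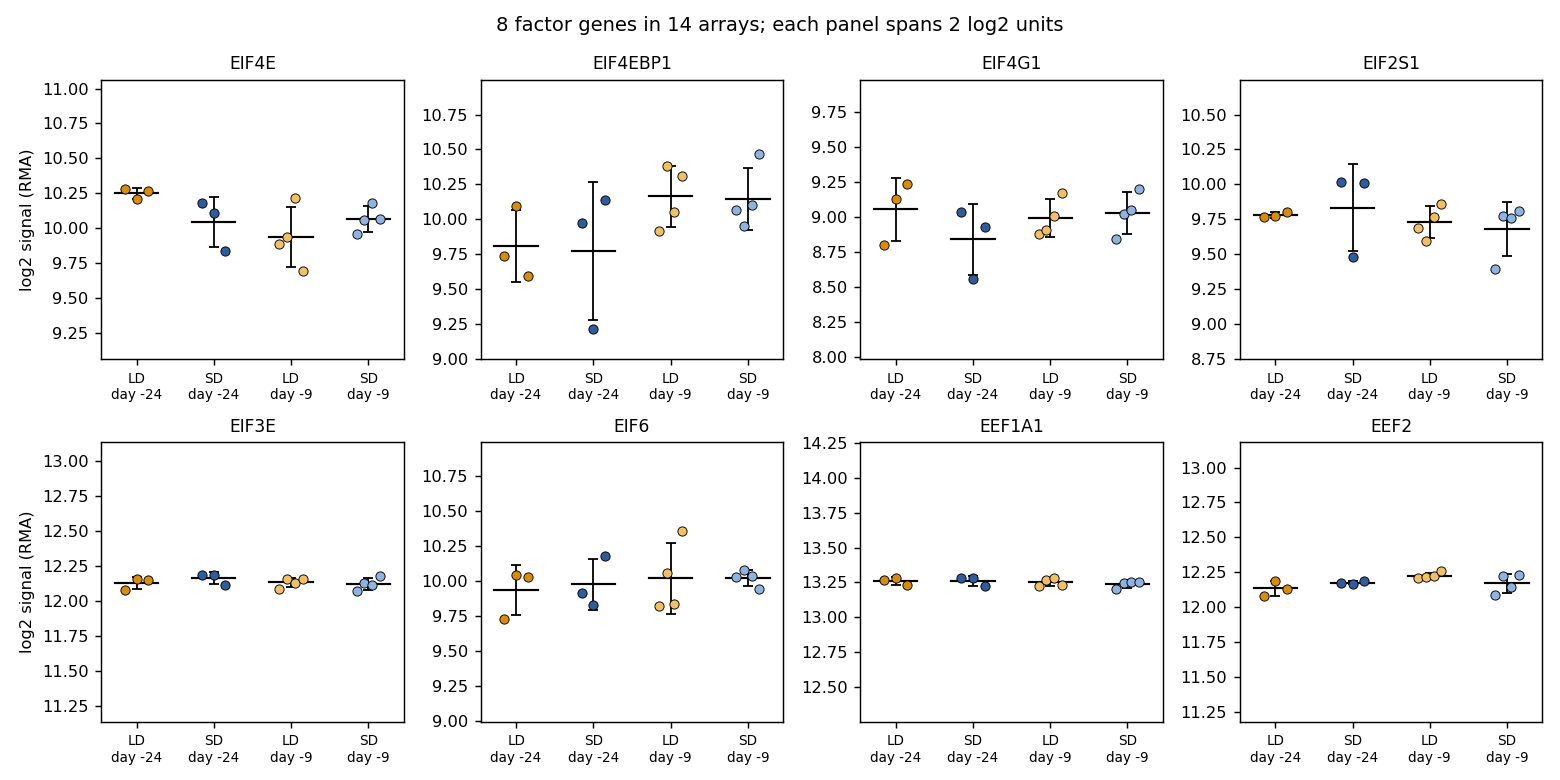
Log2 signal of 8 factor genes in the 4 groups (points are single arrays, n = 3 at day -24 and n = 4 at day -9; horizontal lines are means and bars standard deviations), with 2 log2 units in each panel. EEF1A1, EEF2 and EIF3E stay within 0.18 log2 units over all 14 arrays, while EIF4EBP1 spans 1.25.

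The array also carries control probe sets for the ends and the middle of the EIF4E transcript. The 3' control, left out of the test above, read 10.77, 10.45 and 10.60 in LD day -24, 10.49, 10.58 and 10.34 in SD day -24, 10.26, 10.18, 10.33 and 10.12 in LD day -9 and 10.23, 10.27, 10.28 and 10.28 in SD day -9. All 8 day -9 arrays (mean 10.24, standard deviation 0.067) were below all 6 day -24 arrays (mean 10.54, standard deviation 0.15), although the nearest arrays of the days read 10.33 and 10.34. Such complete separation by day was seen in 0 of the 64 tested factor probe sets and in 0.287% of all tested probe sets. The difference was -0.29 (standard error 0.076, -0.38 in LD and -0.20 in SD), and limma over all 24128 probe sets gave an adjusted p of 0.634. It lay between -0.25 and -0.34 under every alternative setting and left-out array. This probe set was singled out after its values were seen, among the 6 control probe sets of EIF4E and EEF1A1.

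The other EIF4E probe sets did not show the same separation. The day differences were -0.15 for the tested probe set, -0.086 for the middle control and 0.18 for the 5' control. The middle control read 9.35, 9.15 and 8.98 in LD day -24 and 8.92, 8.73 and 8.15 in SD day -24, without overlap, and its photoperiod by day interaction was 0.90 (standard error 0.38, limma adjusted p = 0.900). LD day -9 replicate 4 was the lowest array in both the 5' control, at 5.51, and the middle control, at 7.85. SD day -24 replicate 3 was the next lowest in both, at 5.75 and 8.15. These are the 2 low-signal arrays, and the interaction of the middle control without them was not tested. The 3' minus 5' value of EIF4E averaged 3.92 in LD day -24, 4.37 in SD day -24, 3.77 in LD day -9 and 3.58 in SD day -9. The same value for GAPDH, a transcript used as a control of RNA quality, averaged 1.57, 1.59, 1.39 and 1.38 in that order. For PPIB it averaged 2.15, 2.18, 2.17 and 2.21, and for GST -0.75, -0.67, -0.81 and -0.81. With the mean of this value over GAPDH, PPIB and GST as a covariate, the 3' control of EIF4E differed between days by -0.30.

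**Figure D3:**
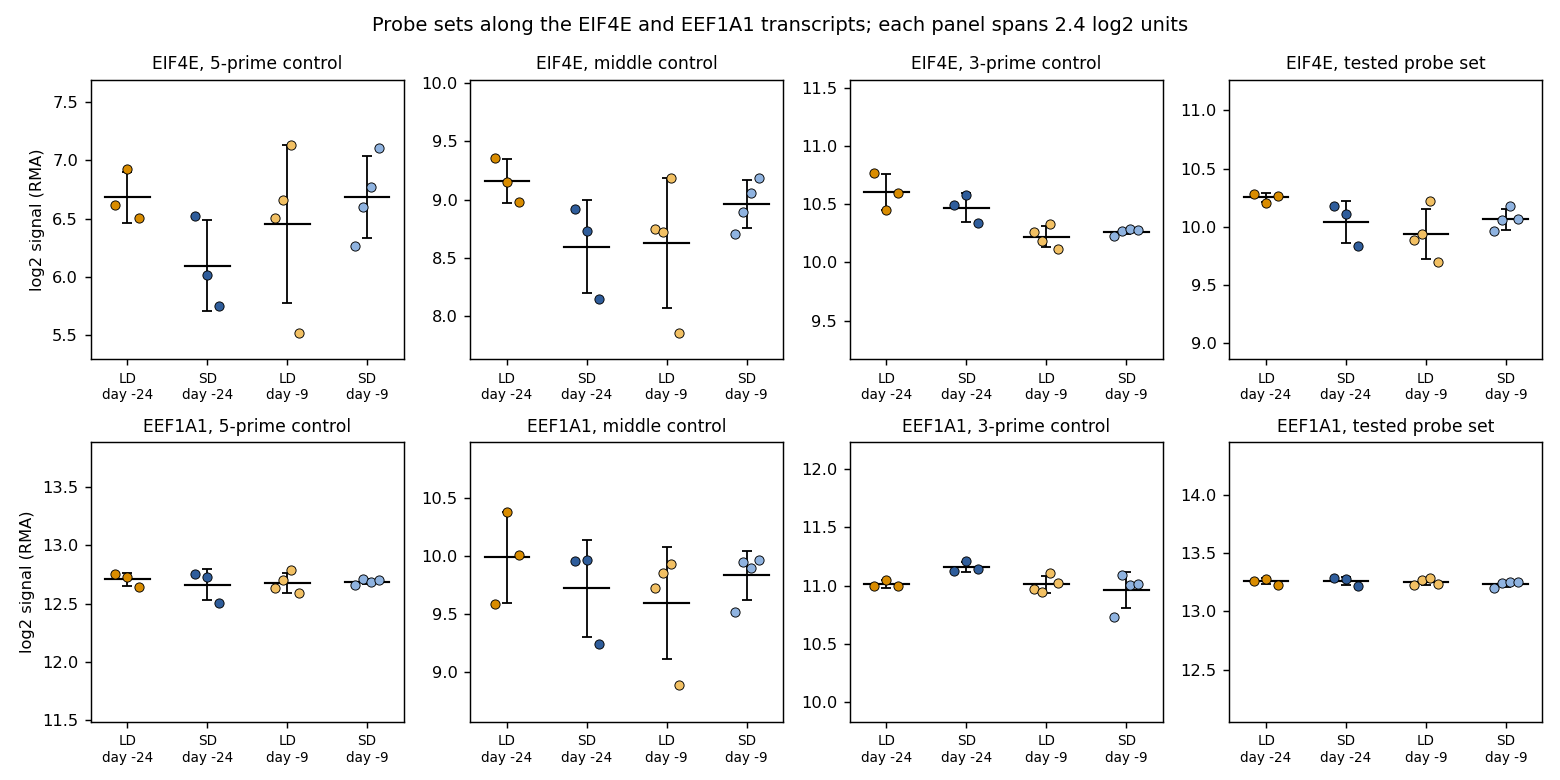
Log2 signal of probe sets along EIF4E (top) and EEF1A1 (bottom) in the 4 groups (points are arrays, n = 3 at day -24 and n = 4 at day -9; lines are means and bars standard deviations), with 2.4 log2 units in each panel. The 3' control of EIF4E is the one panel in which all day -9 arrays, up to 10.33, lie below all day -24 arrays, from 10.34.

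eIF2 and the factors that deliver the initiator tRNA comprised EIF2S1, EIF2S3, EIF2A and EIF2D. EIF2S1, the alpha subunit that stress kinases phosphorylate, read 9.77, 9.77 and 9.80 in LD day -24, 10.02, 9.48 and 10.01 in SD day -24, 9.69, 9.59, 9.77 and 9.86 in LD day -9 and 9.39, 9.77, 9.76 and 9.81 in SD day -9. The groups overlapped, with 0.0030 for photoperiod (95% interval -0.22 to 0.23) and -0.10 for day. The day difference was -0.19 without SD day -24 replicate 2, the lowest of its group, and -0.054 when SD day -9 replicate 1 was left out. EIF2S3, the gamma subunit that holds GTP and the tRNA, was lower at day -9 in both of its probe sets in LD, without overlap between days. The dimmer of them read 9.76, 9.75 and 9.70 in LD day -24 and 9.58, 9.59, 9.60 and 9.67 in LD day -9. In SD it read 9.95, 9.79 and 9.61 at day -24 and 9.56, 9.51, 9.57 and 9.71 at day -9, so the days overlapped there. Over both photoperiods the difference was -0.16 (standard error 0.073, limma adjusted p = 0.646). Probe sets whose days did not overlap numbered 6 of 64 in LD (8.98% of all) and 1 of 64 in SD (5.9% of all). The other 4 in LD were probe sets of EIF4A2, EIF3A and EIF1, which were lower at day -9, and EEF2, which was higher. These counts were 19 of 64 (19.2% of all) in LD without LD day -24 replicate 2 and 10 of 64 (13.7% of all) in SD without SD day -24 replicate 3. EIF2A had its smallest p in a probe set of mean signal 3.10, under the lower quartile of every array. It read 3.31, 3.09 and 3.26 in LD day -24, 3.02, 2.96 and 3.14 in SD day -24, 2.95, 3.12, 3.17 and 3.08 in LD day -9 and 3.26, 2.93, 3.07 and 2.98 in SD day -9. The photoperiods overlapped at day -24, with a difference of -0.18 (limma adjusted p = 1).

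eIF2B, the exchange factor of eIF2, was measured through 4 of its subunit genes, and EIF2B5 was not analysed here. EIF2B3, the gamma subunit, held the 1 probe set under an unadjusted p of 0.05 for photoperiod at day -24. It read 6.59, 7.39 and 7.26 in LD day -24 and 7.49, 7.43 and 7.60 in SD day -24, without overlap. At day -9 it read 7.30, 7.43, 7.40 and 7.62 in LD and 7.20, 7.52, 7.20 and 7.49 in SD, with overlap. The day -24 difference was 0.43 (standard error 0.19, limma adjusted p = 1). It came to 0.18 without LD day -24 replicate 1, the lowest array in this probe set. The second EIF2B3 probe set, of lower signal, read 4.00, 4.85 and 5.07 in LD day -24, 4.62, 4.50 and 4.66 in SD day -24, 4.73, 4.42, 4.69 and 5.12 in LD day -9 and 3.96, 4.60, 4.40 and 4.48 in SD day -9. It gave -0.045 at day -24 and -0.38 at day -9 (limma adjusted p = 0.984), so the 2 probe sets disagreed in sign at day -24. Its day -24 value was -0.36 without LD day -24 replicate 1, the lowest of that group. The day -9 value was -0.24 when SD day -9 replicate 1, the lowest there, was left out. EIF2B1, the alpha regulatory subunit, read 7.33, 7.73 and 7.73 in LD day -24, 7.54, 7.12 and 7.70 in SD day -24, 7.37, 7.40, 7.82 and 8.06 in LD day -9 and 7.16, 7.47, 7.44 and 7.67 in SD day -9. The photoperiods overlapped on both days, with a difference over both days of -0.18 (standard error 0.14, 95% interval -0.49 to 0.12), which was -0.10 without SD day -24 replicate 2. All 4 eIF2B genes were below 0 for SD minus LD at day -9, with a median of -0.096, and 3 of 4 were above 0 at day -24, with a median of 0.073. The day -24 values rested on single arrays: 1 of 4 was above 0 (median -0.037) without SD day -24 replicate 3, and the median was -0.00014 without LD day -24 replicate 1. The day -9 median was -0.014 without LD day -9 replicate 4.

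**Figure D4:**
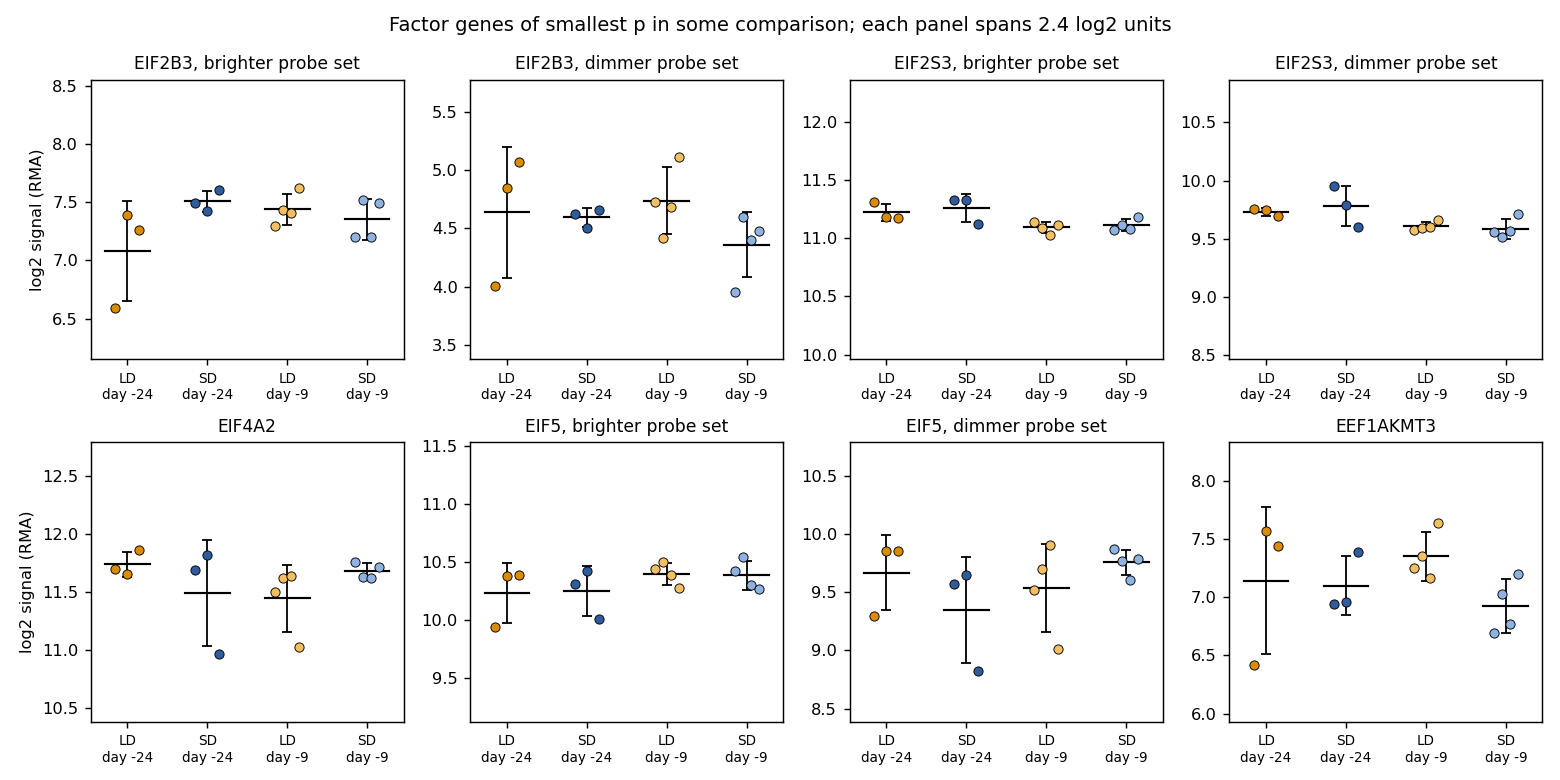
Log2 signal of the probe sets of EIF2B3, EIF2S3, EIF4A2, EIF5 and EEF1AKMT3 in the 4 groups (points are arrays, n = 3 at day -24 and n = 4 at day -9; lines are means and bars standard deviations), with 2.4 log2 units in each panel. The lowest brighter EIF2B3 point, 6.59, and the lowest EEF1AKMT3 point, 6.42, are the same array, LD day -24 replicate 1, and the 2 low EIF4A2 points, 10.97 and 11.03, are SD day -24 replicate 3 and LD day -9 replicate 4.

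eIF3, the large scaffold on the small ribosomal subunit, was the best covered complex, with 12 genes. EIF3E read 12.08, 12.16 and 12.15 in LD day -24, 12.19, 12.19 and 12.12 in SD day -24, 12.09, 12.16, 12.13 and 12.15 in LD day -9 and 12.07, 12.13, 12.11 and 12.18 in SD day -9. The whole spread over 14 arrays was 0.12, and the photoperiod difference was 0.012 (95% interval -0.12 to 0.14). For SD minus LD at day -9, 10 of the 12 eIF3 genes were below 0, with a median of -0.065, and at day -24 9 of 12 were above 0, with a median of 0.033. The day -24 count was 3 of 12 without LD day -24 replicate 1. It was 4 of 12 (median -0.038) when SD day -24 replicate 3 was left out. The day -9 median was -0.011 without LD day -9 replicate 4. For day in LD 10 of 12 were above 0, with a median of 0.13, from -0.22 for EIF3A to 0.26 for EIF3D. In SD the same count was 6 of 12, with a median of -0.0046. Without LD day -24 replicate 1 the LD count was also 6 of 12, with a median of 0.010, and EIF3D was at 0.11. EIF3K had the smallest p of these for photoperiod at day -9. It read 11.33, 11.68 and 11.66 in LD day -24, 11.54, 11.60 and 11.74 in SD day -24, 11.53, 11.77, 11.66 and 11.89 in LD day -9 and 11.42, 11.65, 11.47 and 11.67 in SD day -9. The photoperiods overlapped at day -9, and the difference was -0.16 (standard error 0.12, limma adjusted p = 0.984), which was -0.10 without the low-signal arrays. The second EIF3B probe set read 6.81, 7.20 and 6.98 in LD day -24, 7.11, 6.58 and 6.50 in SD day -24, 7.05, 7.00, 7.10 and 6.78 in LD day -9 and 6.65, 7.35, 7.09 and 7.14 in SD day -9. Its day difference in SD was 0.33 (limma adjusted p = 0.970), with overlap, against 0.15 in the brighter probe set. It was 0.21 when SD day -24 replicate 3 was left out, and 0.52 when the highest of that group, replicate 1, was.

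eIF1 and eIF1A, which take part in scanning for the start codon, were represented by EIF1, EIF1B and EIF1AX, with EIF1AD grouped beside them by name. Their photoperiod differences over both days ran from -0.021 for EIF1B to 0.090 for EIF1AD and their day differences from 0.0062 for EIF1AX to 0.096 for EIF1AD. The EIF1 probe set with the lower signal (mean 3.75, under the lower quartile of every array) read 3.95, 4.01 and 3.81 in LD day -24, 3.94, 3.78 and 3.57 in SD day -24, 3.51, 3.79, 3.74 and 3.58 in LD day -9 and 3.76, 3.74, 3.60 and 3.77 in SD day -9. Its day difference in LD was -0.27 (limma adjusted p = 0.651), without overlap, whereas the brighter EIF1 probe set was above 0 in that contrast. EIF5, which makes eIF2 hydrolyse its GTP, had an interaction of 0.54 in its dimmer probe set (standard error 0.33, limma adjusted p = 0.900) and -0.028 in its brighter one. The dimmer probe set read 9.30, 9.85 and 9.86 in LD day -24, 9.57, 9.65 and 8.83 in SD day -24, 9.52, 9.70, 9.90 and 9.02 in LD day -9 and 9.87, 9.76, 9.61 and 9.79 in SD day -9. The 2 lowest arrays were again those of low signal, and without them the interaction was 0.11. EIF6, which keeps the large subunit from joining early, read 9.73, 10.04 and 10.03 in LD day -24, 9.91, 9.83 and 10.18 in SD day -24, 9.82, 10.06, 9.84 and 10.36 in LD day -9 and 10.03, 10.08, 10.04 and 9.94 in SD day -9. Its groups overlapped, with 0.022 for photoperiod and 0.065 for day, which was 0.0083 without LD day -9 replicate 4, the highest array, and 0.12 when SD day -24 replicate 3 was left out. EIF5A was not analysed here.

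EEF1A1, the carrier of aminoacyl-tRNA, had the lowest within-group standard deviation of the 48 genes, 0.029. It read 13.27, 13.28 and 13.23 in LD day -24, 13.28, 13.28 and 13.22 in SD day -24, 13.22, 13.27, 13.29 and 13.23 in LD day -9 and 13.20, 13.25, 13.25 and 13.26 in SD day -9. The groups overlapped, and the whole spread over 14 arrays was 0.085. The highest value of any probe set on these arrays was 14.0, and whether signals at such levels are compressed was not tested. The photoperiod difference was -0.0055 (95% interval -0.13 to 0.12). The second EEF1A1 probe set, at a mean of 11.0, read 11.12, 11.24 and 11.14 in SD day -24, above the 11.00, 11.02 and 10.99 of LD day -24 and the 10.71, 11.10, 10.98 and 10.97 of SD day -9. Its day difference in SD was -0.23 (standard error 0.11, limma adjusted p = 0.970), without overlap, and -0.15 without the arrays apart on components.

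EEF2, the translocase, read 12.08, 12.19 and 12.13 in LD day -24, 12.18, 12.16 and 12.19 in SD day -24, 12.21, 12.21, 12.22 and 12.26 in LD day -9 and 12.08, 12.22, 12.15 and 12.23 in SD day -9. LD arrays at day -9 lay above LD arrays at day -24 without overlap, by 0.092 (95% interval -0.098 to 0.28), and photoperiods overlapped, with -0.0061 over both days. EEF1B2 and EEF1G, parts of the factor that recharges eEF1A, had differences over days of -0.059 and -0.042. EEF1D, of the same factor, had 0.15, and EEF2K, the kinase that inhibits eEF2, had -0.030. EEF1E1, an auxiliary protein of the multi-synthetase complex that carries an EEF name, had the highest within-group standard deviation of the 48 genes, 0.44.

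EEFSEC, which delivers selenocysteine tRNA, had a dimmer probe set with a mean of 4.27, under the lower quartile of every array. It read 4.77, 4.30 and 4.45 in LD day -24, 4.34, 4.25 and 4.26 in SD day -24, 4.18, 4.19, 3.88 and 4.32 in LD day -9 and 4.27, 4.03, 4.13 and 4.46 in SD day -9. Its day difference in LD was -0.37 (standard error 0.15, limma adjusted p = 0.651), with overlap, and the brighter probe set gave 0.037. The value of the dimmer probe set was -0.24 without the arrays apart on components. EEF1AKMT3, a lysine methyltransferase of eEF1A, read 7.25, 7.36, 7.16 and 7.64 in LD day -9 and 6.69, 7.03, 6.77 and 7.20 in SD day -9. The groups overlapped by the lowest LD array and the highest SD array, and the difference of -0.43 (standard error 0.23, 95% interval -0.92 to 0.066, limma adjusted p = 0.984) was the largest in size of the 48 for photoperiod at that day. It was -0.33 without the 2 low-signal arrays and -0.35 without the 2 arrays apart on components. At day -24 it was -0.046, with LD values of 6.42, 7.57 and 7.44 and SD values of 6.94, 6.96 and 7.39. Without LD day -24 replicate 1, at 6.42, the day -24 difference was -0.41. EEF1A2, the muscle and nerve form of eEF1A, and EEF2KMT, which methylates eEF2, had mean signals of 3.65 and 4.03, under the lower quartile of every array.

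Single arrays stood at the end of the range for many factor genes at once. LD day -24 replicate 1 was the lowest of 14 arrays in 17 of the 48 genes (35.4%, against 25.4% of all named genes), and SD day -9 replicate 1 was the lowest in 14 (29.2%, against 15.8%). LD day -9 replicate 4 was the highest in 22 (45.8%, against 20.8%). LD day -9 replicate 4 and SD day -24 replicate 3 were the 2 lowest arrays in EIF1B, EIF3A, EIF4A2, EIF4E and EIF4G3, which is 10.4% of factor genes against 8.62% of all genes. The same 2 arrays were the highest in 9 genes (18.8%, against 16.9%), among them EIF2D, EIF3CL, EIF4E2 and EIF6. This made 14 factor genes at either end. Another pair, LD day -24 replicate 1 and SD day -9 replicate 1, were also together at either end in 14. The median deviation of the 48 genes from their 14-array mean was -0.18 in LD day -24 replicate 1 and 0.17 in LD day -9 replicate 4, and between these in the other 12 arrays. Over all genes these 2 arrays had -0.13 and 0.11.

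**Figure D5:**
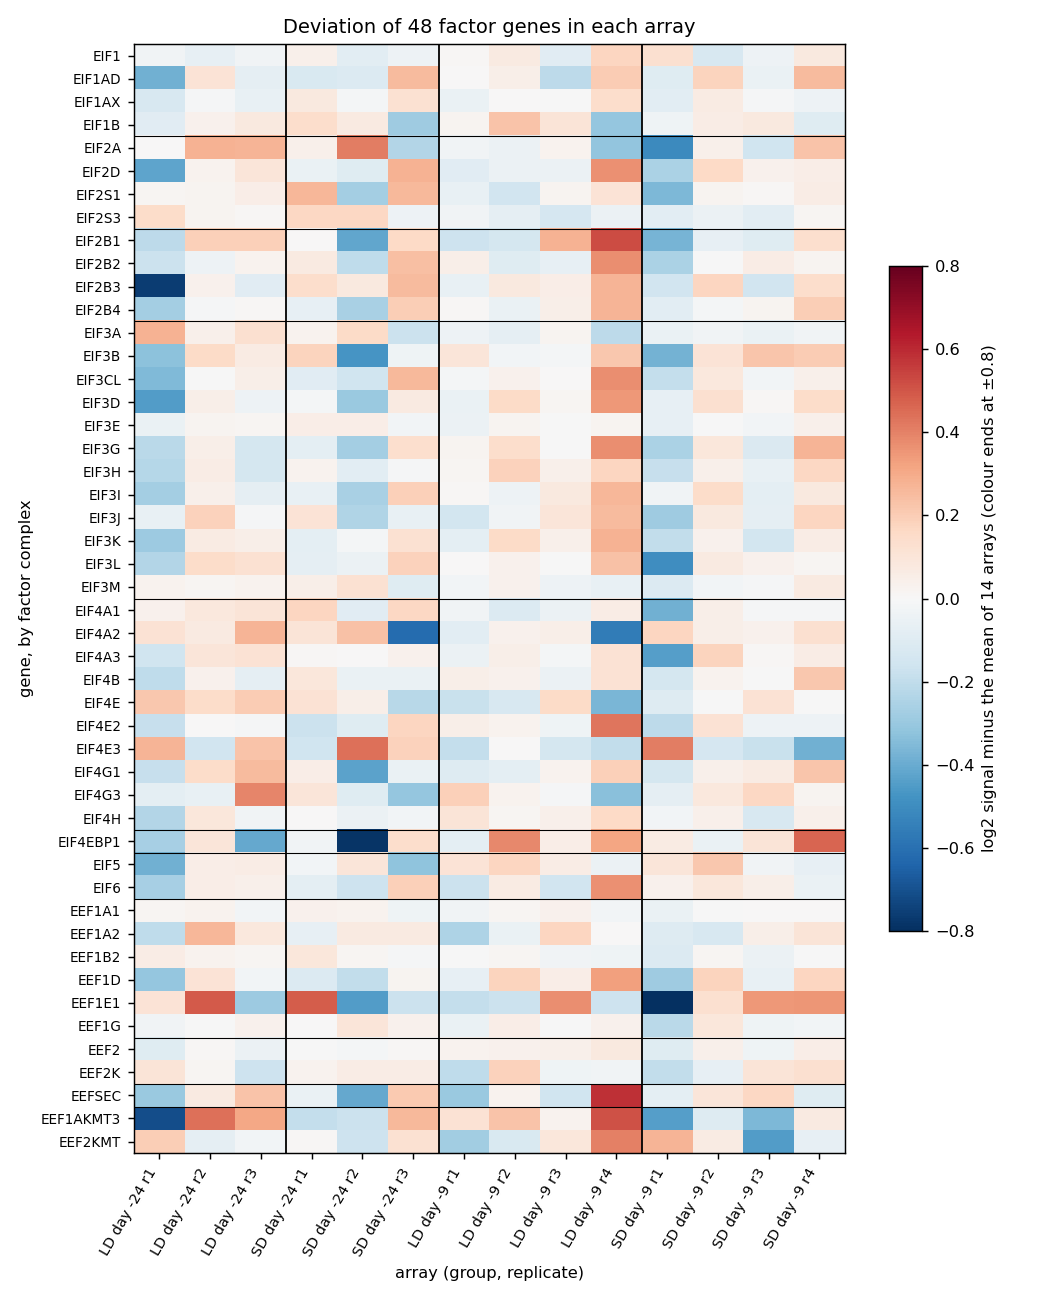
Deviation of each of 48 factor genes (rows, by factor complex) from its mean over 14 arrays, on the log2 scale, in every array (columns, by group); red is above and blue below the mean, and colours end at 0.8. LD day -24 replicate 1 is mostly blue (lowest in 17 genes) and LD day -9 replicate 4 mostly red (highest in 22 genes), while EIF4A2 and EIF4E go the other way in that array.

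Where a gene had more than 1 tested probe set, the signs often differed. Among the 15 such genes, the probe sets disagreed in sign for 4 in SD minus LD over both days (EEF1A1, EIF2B3, EIF3A and EIF4A3) and for 4 in day -9 minus day -24 over both photoperiods (EEF2K, EEFSEC, EIF1 and EIF2B3). The disagreement was wider at single days, with 8 of 15 for SD minus LD at day -24.

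No gene of the 5 neighbouring lists passed limma's adjusted p of 0.05 in any contrast. For day -9 minus day -24 over both photoperiods, 7 of 11 measured genes of the integrated stress response were above 0, with a median of 0.11. IMPACT, an inhibitor of the eIF2 kinase GCN2, differed by -0.38 (limma adjusted p = 0.636), and EIF2AK3, the kinase PERK, by 0.48 (limma adjusted p = 0.643). In the mTOR list, 11 of 16 were above 0, with a median of 0.070, and PDCD4, a protein that binds and blocks eIF4A, differed by -0.21 (limma adjusted p = 0.636). These 3 were the genes under an unadjusted p of 0.05 in that contrast across the 5 lists. That is 4.41% of 68 measured genes against 7.6% of all named genes. EIF2AK3 was at 0.30 without SD day -24 replicate 3. Poly(A) binding, release and recycling factors had 10 of 15 above 0 (median 0.018), cytosolic aminoacyl-tRNA synthetases 15 of 18 (median 0.066) and mitochondrial translation factors 4 of 8 (median 0.0021). Without LD day -24 replicate 1 the median of the stress response list was 0.038 and that of the mTOR list 0.0016. Without SD day -24 replicate 2 the synthetases had 9 of 18 above 0, with a median of 0.0029.

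For photoperiod, the synthetases, which charge tRNA for the factors above, had 15 of 18 below 0 at day -9, with a median of -0.10, and 9 of 18 at day -24, with a median of 0.0035. The mitochondrial translation factors had 7 of 8 above 0 at day -24 (median 0.096) and 7 of 8 below 0 at day -9 (median -0.17). Without LD day -24 replicate 1 the mitochondrial count at day -24 was 3 of 8 above 0 (median -0.035), and the synthetases had 5 of 18 above 0 (median -0.11). At day -9 the synthetase median was -0.025 without SD day -9 replicate 1, and the mitochondrial median -0.081 without LD day -9 replicate 4. The median over all genes changed sign in the same way between the days, at 0.043 and -0.039. At an unadjusted p under 0.05, the 5 lists held 0 of 68 genes for photoperiod at day -24, at day -9 and over both days. The shares of all named genes were 1.9%, 2.56% and 1.75% in that order.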

How the data were processed

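Mammary RNA from 14 biopsies was measured on Affymetrix bovine arrays from 2 µg of total RNA, with oligo(dT) priming. The deposited values are log2 signals, which the authors made with RMA per the submitters' processing notes (version not given in the sources used here). RMA sets the arrays to a common distribution, so a shift of all genes together cannot be seen. The precision of a contrast was limited by the number of arrays. Of 24128 probe sets, 112 controls were left out, and 24016 were tested: 13292 had 1 gene symbol, 86 several and 10638 none. The array's annotation named the genes, and all 48 factor genes matched RefSeq by gene ID and symbol. No sequence or genome build was given for the probe sets, and no coordinates are used.

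Group means of the 4 groups were fitted to all 14 arrays with limma 3.58.1 in R 4.3.3, without a term for replicate number, with Benjamini-Hochberg adjustment across the tested probe sets. A gene was represented by its probe set of highest mean. Array values are given for EIF4E, EIF4EBP1, EIF4G1, EIF2S1, EIF3E, EIF6, EEF1A1 and EEF2 and for the up to 4 genes of smallest p in each contrast. The 3' control of EIF4E was added after its values were seen. The members and lists were chosen with earlier results of these data known. The test was checked on simulated data with planted differences of 2-fold or more and noise independent between probe sets. That check does not cover the smaller differences described here. Alternatives were a filter on a mean log2 of at least 5, an intensity trend, robust variance, array weights, median centring, only the groups compared, a replicate block, marker means as covariates, 2 pairs of arrays and each single array left out, and the median over a gene's probe sets. The covariate of transcript ends, and leaving out arrays for the counts of complexes and lists, were chosen after seeing the data.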

Additional observations from a re-analysis of the deposited data

Results flagged for a closer look

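Within the groups of 4 arrays at day -9, 1 array stood apart from the other 3 in 9 of 114 combinations of factor probe set and group (7.89%) by Dixon's test of the gap over the range, for which chance gives about 1 in 20. SD day -9 replicate 1 was the low array in 4 of them. It read 10.10 for EIF4A1 against 10.48 to 10.54 in the other 3, 10.23 for EIF3L against 10.74 to 10.80, 9.39 for EIF2S1 against 9.76 to 9.81, and 13.20 for EEF1A1 against 13.25 to 13.26. LD day -9 replicate 4 was the high array in 3, with 9.08 for EIF2D against 8.62 to 8.67, 10.96 for EIF3L against 10.72 to 10.76, and 10.81 for EIF3CL against 10.42 to 10.47. The 2 others were EIF4H and EEF1E1. EIF4H was at 4.88 in SD day -9 replicate 3 (5.32 to 5.36 in the others). EEF1E1 was at 10.42 in LD day -9 replicate 3 (9.86 to 9.88 in the others). The same share over all probe sets was not computed, so the count is not read as particular to factor genes. Flags from the same array are not independent, and some probe sets were included for their small p. Over all named genes, SD day -9 replicate 1 was the lowest array in 15.8% and LD day -9 replicate 4 the highest in 20.8%.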

How the results depend on the processing

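The count of factor probe sets past an adjusted p of 0.05 was 0 in all 179 alternative values, and the lowest adjusted p of a named difference was 0.433. Of 186 alternative medians over the 48 genes, 185 moved by less than 0.089, the within-group standard deviation of the arrays' median deviations. That limit is larger than every main median (largest 0.062, for day in LD), so a median could change sign and still count as unmoved. The interaction median was 0.047 without both arrays apart on principal components. The medians of the other 6 contrasts each changed sign when 1 array was left out, and the cause was not tested. Of 1084 alternative values for 43 named differences, 1048 kept direction and side of the threshold and 36 changed sign, all of differences under 0.1 in size. No named difference was past the threshold in the main fit, so none could fall back from it. EEF1A1 for photoperiod became 0.0045 with array weights, 0.0023 with the luminal covariate, 0.0012 without both low-signal arrays and 0.0024 without both arrays apart on components. EIF2S1 for photoperiod became -0.00098 with median centring and -0.019 without the low-signal arrays, and EIF6 became -0.021 with the luminal covariate and -0.031 without the arrays apart on components. For day, EIF4G1 became -0.020 with array weights and EEF2 -0.00075 with median centring. The cause was not tested.

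With each array left out in turn, the photoperiod differences ran from -0.013 to 0.0048 for EEF1A1, -0.019 to 0.0085 for EEF2, -0.043 to 0.093 for EIF2S1, -0.00045 to 0.024 for EIF3E, -0.078 to 0.012 for EIF4E, -0.12 to 0.11 for EIF4EBP1 and -0.030 to 0.078 for EIF6, and the day difference of EIF4G1 from -0.0084 to 0.11.

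Arrays with the same replicate number were not shown to be paired: over 19 pairs the correlations of their deviations ran from -0.34 to 0.33, and 9 were above 0.1. With the replicate block the EIF4EBP1 day difference was 0.29 (main 0.37), and the block gave 0 calls in every contrast. The fit on only the groups compared gives no new value for the averaged contrasts and the interaction, and the filter removes dim probe sets.

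Precision was limited by 3 or 4 arrays per group, and by signal for the 6 probe sets with a mean under the lower quartile of every array, of EEF1A2, EEF2KMT, EIF1, EIF2A, EIF3A and EEFSEC (the first 2 have no brighter one). With arrays left out in turn, the count of factor probe sets at an unadjusted p under 0.05 ran from 0 to 7 for day in LD (main 3), 0 to 4 in SD (main 0), 0 to 6 over both photoperiods (main 2) and 0 to 4 for photoperiod over both days (main 0); it was 1 for day in LD with the filter on low signal.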
